A study of Homo sapiens with 8 samples.

Results

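The miR-27a pull-down was compared with its own input, using 4 of the 8 arrays of the series. Those 4 arrays were chosen by their labels alone, as pull-down 1 and 2 and input 1 and 2 of miR-27a, and same-numbered arrays were treated as pairs. All 9535 genes with a probe in the deposited table were described, each through its brightest probe over the 8 arrays. Each group held 2 arrays of RNA from HEK293T, a human embryonic kidney cell line that carries the SV40 large T antigen. In the miR-27a pull-down and the miR-27a input the cells had received 200 pmol of biotinylated miR-27a duplex 24 h before harvest, and in the miR-23b pull-down and the miR-23b input the same amount of biotinylated miR-23b duplex for the same time. The pull-down groups were the RNA held on streptavidin beads, and the input groups were RNA of the transfected cells without that step. The labels name neither the arm of the duplex that carried the biotin nor separate cultures, so the p-values rest only on array-to-array spread, which could be purely technical. A pull-down with a duplex of unrelated sequence was not analysed here, so that retention of an mRNA by miR-27a and retention by the beads or the procedure cannot be told apart.

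MicroRNAs are short RNAs that guide Argonaute proteins to messenger RNAs, mainly through pairing of the seed near their 5′ end with sites in the 3′ untranslated region. The guided complex recruits TNRC6 proteins, which bring in deadenylases and decapping enzymes. A biotin on the miRNA allows the duplex, and mRNAs bound with it, to be recovered on streptavidin. Members of the miR-27 family are best known from adipocyte differentiation, lipid metabolism, angiogenesis and cancer cells, and miR-27a is made from the same primary transcript as miR-23a.

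The mature sequences below are shown because the arrays compare a miRNA with its input and with a second miRNA whose seed is close to its own. They were taken from RefSeq with build GRCh38.p14, and capitals mark the seed, bases 2 to 8 from the 5′ end. The unsuffixed names of the labels were read as the 3p arms.
hsa-miR-27a-3p: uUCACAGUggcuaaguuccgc
hsa-miR-27b-3p: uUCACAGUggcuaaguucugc
hsa-miR-23b-3p: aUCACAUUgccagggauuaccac
hsa-miR-27a-5p: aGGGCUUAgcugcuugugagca
The gene of miR-27a lies on the minus strand, with the 3p arm at chr19:13836447-13836467 and the 5p arm at chr19:13836487-13836508. The gene of miR-23b lies on the plus strand, with the 3p arm at chr9:95085265-95085287, close to the 3p arm of miR-27b at chr9:95085505-95085525. The 3p arms of miR-27a and miR-27b are 21 nt long and differ at 1 base, written C19U from the first to the second. The seeds of miR-27a-3p and miR-23b-3p share 6 of 7 positions, and the one that differs is G7U, from miR-27a to miR-23b and counted from the 5′ end. Their perfect seed matches in DNA letters are ACTGTGA for miR-27a and AATGTGA for miR-23b. In RefSeq, 3 mature human miRNAs carry the miR-27a-3p seed, namely miR-27a-3p, miR-27b-3p and miR-9985, and 3 carry that of miR-23b-3p, namely miR-23a-3p, miR-23b-3p and miR-23c. Transcript sequences were not used here, so that no mRNA was searched for these matches.

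The deposited values are log2 signals without counts or detection calls for the labelled arrays, and the number of arrays limits their precision. On the 4 miR-27a arrays they lay between 7.19 and 15.2, and the medians of all 8 arrays lay between 9.09 and 9.12. With medians so close, each rise or fall is measured against the rest of its array, and the mass of RNA recovered is unknown here. Of 15 genes listed for the HEK293 line 11 were in the table, with LIN28B (means of 13.19 in the pull-down and 11.74 in the input), CDH2 (12.9 and 12.01) and VIM (12.03 and 13.05) the brightest. Others lay near the lowest input value of 7.34, namely WT1 (means of 7.41 in the pull-down and 7.46 in the input), KRT18 (7.38 and 8.05) and IGF2BP1 (8.17 and 7.80), and the other 5 had input means of 9.06 to 10.3. Of 21 genes listed for blood, liver, keratinocytes, fibroblasts and endothelium 3 were in the table, of which CD14 (means of 7.44 in the pull-down and 7.55 in the input) and COL1A1 (7.36 and 7.57) lay near that value too and ALB higher (7.85 and 8.50), above those 3 HEK293 genes in the input.

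Most genes passed the test in the miR-27a pull-down. By limma with the replicate number as a block and Benjamini-Hochberg adjustment over all probes, 2517 genes (26.4% of those tested) were higher in the pull-down than in the input at an adjusted p under 0.05, and 2573 genes (27.0%) were lower, 5090 (53.4%) in all. Without the block the counts were 1763 higher and 1531 lower, and all of these 3294 genes were among the 5090. Group counts given below without the block are to be set against these, and not against 26.4% and 27.0%. The counts over all genes were likewise smaller without any 1 of the 4 miR-27a arrays. Rises reached further than falls. Of the genes called higher 699 differed by more than 1 on the log2 scale and 38 by more than 2, and of those called lower 317 and 4, the 4 being RPL26, RPL29, RPS7 and PTTG3P. The median change was 0.74 among genes called higher and -0.61 among genes called lower, and -0.04 over all genes.

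Both pairs of arrays gave similar changes. Across genes the change in pair 1 (pull-down 1 minus input 1) correlated with that in pair 2 at r = 0.88 and rho = 0.867, as a description of arrays that share a cell line and a platform, and genes are not independent replicates. In both pairs 3734 genes were higher in the pull-down and 4256 lower, and 1545 had opposite signs. Both pull-down values lay above both input values in 3220 genes (33.8%) and below them in 3549 (37.2%). Among the 5090 called genes 4929 had no overlap, and of all genes, the called ones included, 6769 (71.0%) had none. The calls rest on the same values, so the lack of overlap among called genes is no separate support for them. With 2 arrays a group, some genes separate in this way by ordering alone. Over all genes the median absolute change was 0.41 in pair 1 and 0.39 in pair 2, and the median absolute difference was 0.18 between the pull-down arrays and 0.18 between the input arrays.

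**Figure D1:**
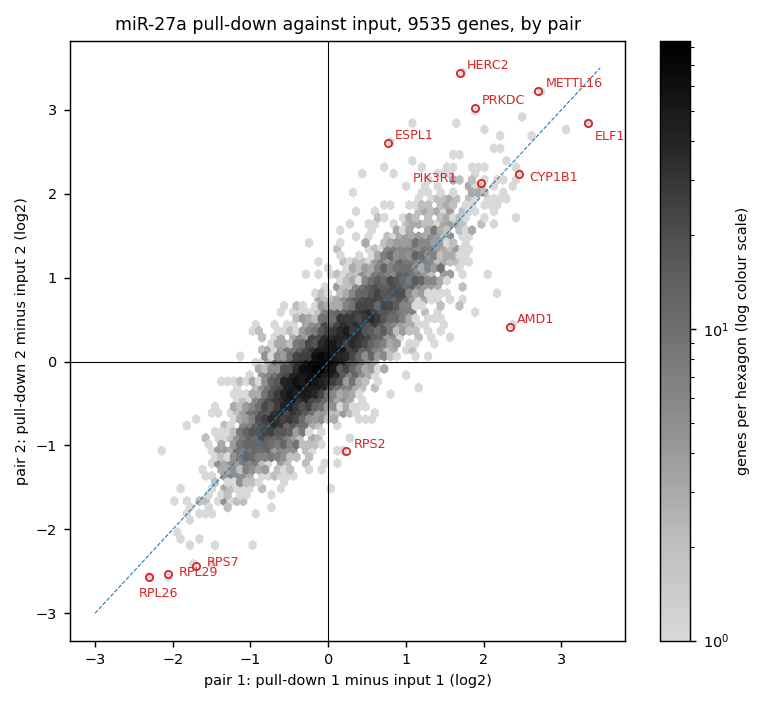
Log2 change in pair 1 (x axis) and in pair 2 (y axis) for 9535 genes, shaded by the number of genes per hexagon on a log colour scale, with the dashed line marking equal changes. Most genes lie along the line, ELF1, METTL16 and CYP1B1 are high in both pairs, RPL26, RPL29 and RPS7 are low in both, and HERC2, PRKDC and ESPL1 lie above the line and AMD1 and RPS2 below it.

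The largest rise was that of ELF1, an ETS family transcription factor gene, with 12.54 and 12.31 in the pull-downs against 9.20 and 9.47 in the inputs. All values of both pull-downs stood far above both inputs, with a log2 change of 3.09 ± 0.14 (moderated SE), an apparent 8.52-fold (limma, adjusted p = 9.6e-06). METTL16, which methylates adenosine in the U6 small nuclear RNA, had 10.51 and 11.00 in the pull-downs and 7.81 and 7.77 in the inputs, a change of 2.97 ± 0.18 with inputs near the lowest signals of the arrays. PLCXD1, which encodes a protein with a phospholipase C catalytic domain, was the most even of the 15 leading genes, with 12.66 and 12.68 in the pull-downs against 10.01 and 10.02 in the inputs. KLHL23 of the kelch-like family (2.91 ± 0.14) and ACBD7 of the acyl-CoA-binding family (2.71 ± 0.19) rose as well. The 15 were chosen among called genes without overlap between the groups, so their lack of overlap is no result.

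Several of the 15 leading genes serve metabolism. MRI1, an isomerase of the methionine salvage pathway, had 13.27 and 13.50 in the pull-downs against 10.96 and 11.10 in the inputs, and its other probes gave 2.43 and 2.19 beside the 2.35 ± 0.14 of the brightest. MMACHC, which processes cobalamin, had 11.86 and 11.97 in the pull-downs and 9.46 and 9.64 in the inputs. CYP1B1, an oestrogen-oxidising cytochrome P450, had 10.34 and 10.16 against 7.89 and 7.92. For all 3 genes the pull-downs stood above both inputs by more than 2 on the log2 scale. VHL, the tumour suppressor that marks hypoxia-inducible factors for degradation, was the brightest of the 15, with 14.15 and 13.90 in the pull-downs against 11.72 and 11.70 in the inputs, and all 3 of its probes were called higher (2.31, 1.57 and 1.89). SPRYD7 (2.43 ± 0.14), MRPS16 of the mitochondrial ribosome (2.36 ± 0.13) and SLC46A3, a solute carrier (2.31 ± 0.13), rose too. BRI3BP was less settled, since the brightest probe rose by 2.37 ± 0.17 and a second by 0.55, while the other two gave -0.23 and 0.23 and were not called.

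HERC2 and PRKDC, which encode giant proteins, differed between the pull-down arrays. HERC2, a ubiquitin ligase, had 10.54 and 12.70 in the pull-downs against 8.85 and 9.25 in the inputs (2.57 ± 0.51, the largest SE of all genes, limma, adjusted p = 0.0023). Its call was lost without the replicate block (adjusted p = 0.073). PRKDC, the catalytic part of the DNA-PK repair kinase, had 12.64 and 13.79 against 10.76 and 10.77 (2.46 ± 0.39, adjusted p = 7.6e-04). For both genes pull-down 2 was the higher, and a lack of overlap with the inputs was a condition of their choice.

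**Figure D2:**
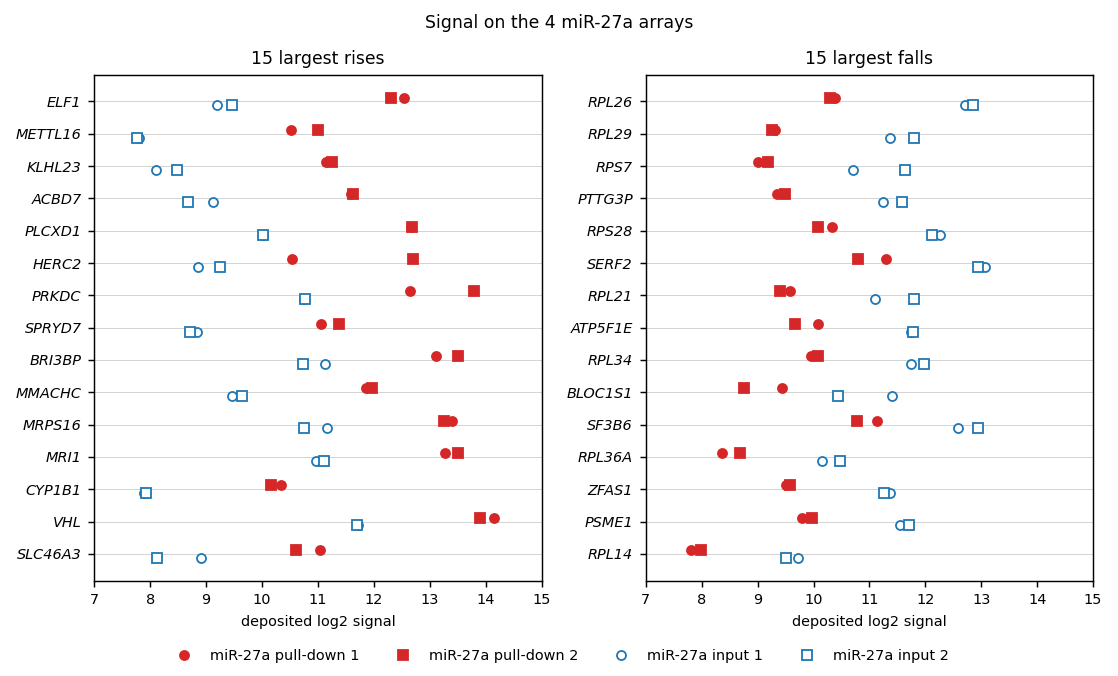
Deposited log2 signal (x axis) on each of the 4 miR-27a arrays for the 15 largest rises (left) and the 15 largest falls (right), with filled symbols for the pull-downs and open symbols for the inputs, circles for array 1 and squares for array 2. The genes were chosen among called genes whose pull-downs and inputs do not overlap, so the lack of overlap is no result. The gap between circle and square is widest for the pull-downs of HERC2 (10.54 and 12.70).

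Falls were led by genes of the cytosolic ribosome, which made up 8 of the 15 largest. RPL26 had 10.39 and 10.30 in the pull-downs against 12.70 and 12.86 in the inputs, a change of -2.43 ± 0.14 (limma, adjusted p = 1.1e-05). RPL29 had 9.31 and 9.25 against 11.37 and 11.79 (-2.30 ± 0.19). RPS7 had 9.00 and 9.19 against 10.70 and 11.63 (-2.07 ± 0.24), with the wider gap between its inputs. Other falls of this kind were RPS28 (-1.98 ± 0.12), RPL21 (-1.96 ± 0.21), RPL34 (-1.84 ± 0.12), RPL36A (-1.80 ± 0.11) and RPL14 (-1.72 ± 0.15). Second probes of RPL29 (-2.12) and RPS7 (-2.19) were close to the brightest, while those of RPL34 (-0.86) and RPL14 (-0.75) fell less. All of these second probes were called lower. Ribosomal protein genes have many processed pseudogenes, so that the source of a signal is uncertain.

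The other 7 leading falls were genes of varied roles. ATP5F1E, the epsilon subunit of ATP synthase, had 10.08 and 9.67 in the pull-downs against 11.75 and 11.77 in the inputs (-1.89 ± 0.18). SF3B6, a subunit of the spliceosomal SF3b complex, had 11.14 and 10.77 against 12.58 and 12.95 (-1.82 ± 0.22), and PSME1, a subunit of a proteasome activator, had 9.79 and 9.97 against 11.54 and 11.70 (-1.74 ± 0.13). In each the highest pull-down lay more than 1 below the lowest input. SERF2 (-1.97 ± 0.14), BLOC1S1, a subunit of a complex of lysosome-related organelles (-1.83 ± 0.14), and ZFAS1, a non-coding host of small nucleolar RNAs (-1.77 ± 0.14), were lower too. Second, dimmer probes of SERF2 (-0.615) and SF3B6 (-1.31) fell less and were also called lower. PTTG3P (-2.00 ± 0.14) is a close copy of PTTG1, so that its signal cannot be assigned to it with certainty.

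Genes reported as miR-27 targets were measured for 23 members of a list drawn from general knowledge. In the pull-down 9 were called higher, against 26.4% of all genes tested, 2 were called lower, against 27.0%, and 12 did not pass. Their median change was 0.26, against -0.04 over all genes, and their median genomic span was 87.6 kb, against 28.4 kb. Without the replicate block 7 were called higher and 0 lower, and with any single array left out 6 to 9 higher and 0 to 2 lower. The 6 came without pull-down 2 or either input, the 0 without pull-down 1, and 1 was called lower without any other array except input 2. The median was 0.15 without pull-down 2 and 0.41 without pull-down 1. In the miR-23b pull-down 9 of the same 23 genes were called higher and 2 lower, against 24.5% and 20.2% of all genes. Their median there was 0.36, against 0.025 over all genes, so the excess of rises was not particular to miR-27a.

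CYP1B1, described above, led this list by more than 1 on the log2 scale. FOXO1, a forkhead transcription factor that responds to insulin signalling, had 10.43 and 10.09 in the pull-downs against 8.90 and 9.04 in the inputs (1.29 ± 0.14, limma, adjusted p = 1.3e-04). HIPK2, a kinase that acts on p53, had 11.46 and 11.51 against 10.39 and 10.14 (1.22 ± 0.14), and its second probe rose by 1.03. CBFB, the partner subunit of RUNX proteins, had 11.98 and 11.66 against 11.01 and 10.83 (0.90 ± 0.13). CCNG1, cyclin G1, a target gene of p53, had 11.85 and 11.59 against 11.04 and 10.88 (0.76 ± 0.12). In all of these the pull-downs stood clear of the inputs, and each call held under all 16 alternative settings.

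The other calls of this list were smaller and depended on single arrays. FBXW7, a subunit that brings cyclin E to its ubiquitin ligase, had 9.65 and 10.05 in the pull-downs and 9.26 and 9.16 in the inputs (0.64 ± 0.16), with a second probe at 0.07 that was not called, and the call was lost without pull-down 2 or input 2. SMAD2, a mediator of TGF-beta signalling (0.55 ± 0.14), lost its call without the replicate block and without input 1. RUNX1, a regulator of blood formation, lay near the lowest signals, with 7.84 and 7.89 in the pull-downs against 7.46 and 7.46 in the inputs (0.41 ± 0.11), and was not called without pull-down 2 or either input. MAP2K4, a kinase upstream of JNK (0.39 ± 0.13), was not called without the block, without pull-down 2, or without either input of either miRNA.

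Of the 2 genes called lower, PPARG, the nuclear receptor that directs adipocyte formation, had 10.14 and 9.60 in the pull-downs and 10.62 and 9.98 in the inputs (-0.43 ± 0.11, limma, adjusted p = 0.0095). The groups overlapped, since pull-down 1 lay above input 2, while both pairs fell. The call was lost without the block (adjusted p = 0.35) and without pull-down 1 or input 1. PINK1, a kinase of damaged mitochondria, had 9.14 and 9.18 against 9.26 and 9.95 (-0.44 ± 0.16, adjusted p = 0.046), and was not called in 11 of 16 alternative settings. GRB2, an adaptor of receptor tyrosine kinases, was not called by its brightest probe (-0.20 ± 0.12), while a second probe gave -0.92 and was called lower. The remaining genes that did not pass, PHB1, RARA, VEGFC, EGFR, FADD, SFRP1, SEMA6A, NFE2L2, NOTCH1, SPRY2 and RXRA, had changes between -0.29 and 0.33.

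The only gene of the 23 whose change differed from that with miR-23b was CYP1B1, where the test of the difference calls 1.48% of all genes as greater with miR-27a. It had a change of 2.34 ± 0.11 with miR-27a and 0.41 ± 0.11 with miR-23b. The difference was 1.94 ± 0.16 (limma, adjusted p = 7.3e-04, and 0.013 without the replicate block). Both its miR-27a inputs (7.89 and 7.92) lay below both its miR-23b inputs (8.19 and 8.07), which adds to this difference. A list of 22 reported targets of let-7, a family that was not transfected, had 12 genes (54.5%) called higher and 5 (22.7%) lower in the miR-27a pull-down, against 26.4% and 27.0% of all genes, with a median of 0.38. Its median genomic span was 42.0 kb, against 28.4 kb over all genes. In the miR-23b pull-down 10 of the 22 were called higher and 2 lower, against 24.5% and 20.2% of all genes, with a median of 0.32. With miR-27a and without the block 6 were higher and 3 lower, against 1763 and 1531 of all 9535 genes. Fewer genes of the list were called without any 1 of the 4 miR-27a arrays, as over all genes. CDK6, a cell cycle kinase, had 11.72 and 11.97 in the pull-downs against 10.35 and 10.73 in the inputs (1.30 ± 0.12), and LIN28B, which blocks let-7 maturation, had 13.18 and 13.21 against 11.82 and 11.67 (1.45 ± 0.12). The mitotic kinase gene AURKB (-1.16 ± 0.15) and the GTPase gene HRAS (-0.80 ± 0.11) fell, as did CDC34 (-0.83), HMGA1 (-0.39) and CDC25A (-0.33), which were chosen after their values were seen.

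**Figure D3:**
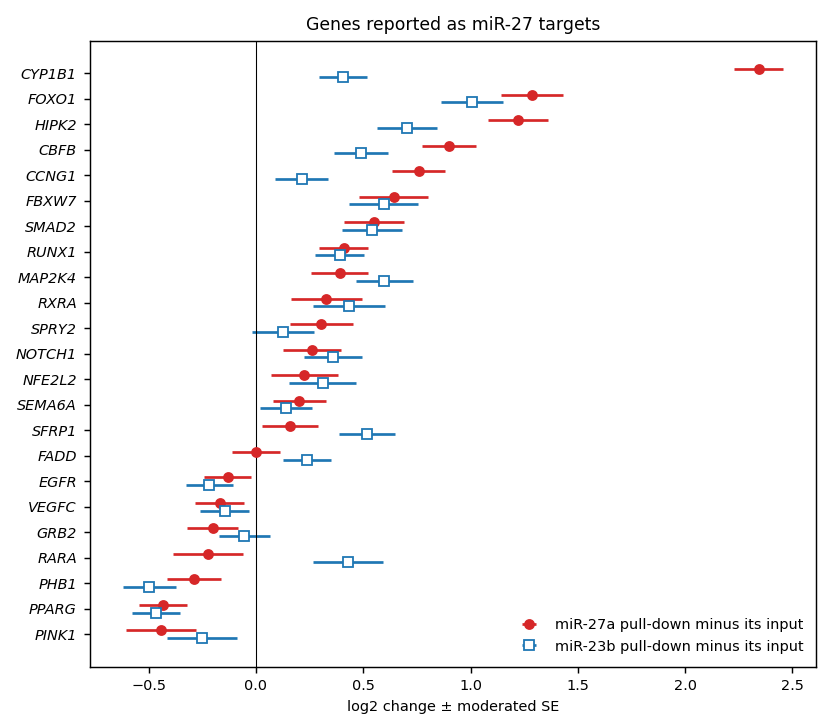
Log2 change ± moderated SE (x axis) of the 23 measured genes reported as miR-27 targets, in the miR-27a pull-down (filled circles) and in the miR-23b pull-down (open squares), each against its own input of 2 arrays. CYP1B1 is the one gene whose changes differ in the test, 2.34 with miR-27a and 0.41 with miR-23b.

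Of 28 measured genes of the RNA silencing machinery 16 (57.1%) were called higher and 3 (10.7%) lower (9 and 2 without the block), against 26.4% and 27.0% of all genes. Their median change was 0.45, against -0.04 over all genes, and their median span 68.4 kb, against 28.4 kb. DICER1, which cuts miRNA precursors, had 10.93 and 10.78 in the pull-downs against 10.06 and 10.06 in the inputs (0.80 ± 0.12, limma, adjusted p = 4.9e-04). PUM2, a Pumilio protein that binds 3′ untranslated regions, had 11.23 and 11.16 against 10.29 and 10.11 (1.00 ± 0.13). The uridylyltransferase genes TUT4 (0.86 ± 0.12) and TUT7 (0.65 ± 0.14) and FXR1 (0.73 ± 0.13), of the fragile X family, rose as well, and these calls and that of LIN28B held under every alternative.

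Argonaute and TNRC6 genes had smaller or less even changes. AGO2, the Argonaute with slicing activity, had 12.28 and 12.44 in the pull-downs against 12.11 and 11.62 in the inputs (0.50 ± 0.18, limma, adjusted p = 0.040), and lost its call without the block and without pull-down 2 or input 2. AGO1 (0.31 ± 0.11) was called but lost the call in 12 of 16 settings, and AGO3 (0.46 ± 0.11) had a second probe at -0.19 that was not called. TNRC6A had 9.95 and 10.45 against 9.43 and 9.07 (0.95 ± 0.20), and TNRC6B had 9.90 and 10.86 against 9.29 and 9.63 (0.92 ± 0.17), both clear of the inputs, whereas TNRC6C gave -0.30 ± 0.13 and did not pass. TNRC6A was not called without pull-down 2 (adjusted p = 0.053) and TNRC6B not without the block (adjusted p = 0.079). XPO5, the exporter of miRNA precursors (0.56 ± 0.20), PRKRA, a partner of Dicer (0.53 ± 0.11), and the Ran GTPase gene RAN (0.44 ± 0.13) also lost their calls without the block.

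The 3 members of this list that fell were TARBP2, another partner of Dicer, with 9.28 and 8.91 in the pull-downs against 10.05 and 9.89 in the inputs (-0.87 ± 0.11), FKBP4, a co-chaperone of HSP90 (-0.93 ± 0.12), and FXR2 (-0.43 ± 0.12), whose call was lost in 4 of 16 settings, without the block (adjusted p = 0.19) and without input 1 or either pull-down. DROSHA (-0.12 ± 0.12) and DGCR8 (0.14 ± 0.16), which form the nuclear Microprocessor, and MOV10 (-0.42 ± 0.20) did not pass. RAN was the 1 gene of the list whose change differed from that with miR-23b, 0.44 against -0.54 (difference 0.98, adjusted p = 0.022, and 0.15 without the block).

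Among genes of deadenylation and decapping, the steps that follow Argonaute binding, 13 of 32 (40.6%) were called higher and 5 (15.6%) lower (8 and 3 without the block), against 26.4% and 27.0% of all genes. Their median of 0.06 was 0.11 without pull-down 1, 0.04 without input 2 and 0.03 without pull-down 2. DCP2, the decapping enzyme, had 12.79 and 12.86 in the pull-downs against 11.57 and 11.54 in the inputs (1.27 ± 0.14). CNOT6L, a deadenylase, rose by 1.05 ± 0.11, TOB1, which recruits deadenylases, by 0.89 ± 0.11, and XRN1, the 5′ to 3′ exonuclease, by 0.87 ± 0.11. All 5 genes called lower encode proteins of the LSM ring, namely LSM7 (-1.20), LSM2 (-0.73), LSM3 (-0.67), LSM4 (-0.49) and LSM5 (-0.45), which were chosen after their values were seen.

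Streptavidin also binds enzymes that carry biotin. A list of 9 genes held biotin-dependent enzymes and genes of biotin handling, such as HLCS and SLC5A6. Of these 9 genes 2 (22.2%) were higher and 2 (22.2%) lower (1 and 1 without the block), near the 26.4% and 27.0% of all genes. Without pull-down 2, 1 was higher and 1 lower, without input 1, 2 and 1, and without input 2, 1 and 2. ACACA, acetyl-CoA carboxylase of the cytosol, had 12.55 and 13.02 in the pull-downs against 10.64 and 10.67 in the inputs (2.13 ± 0.19, limma, adjusted p = 5.0e-05), and its second probe rose by 2.07. ACACB, its mitochondrial counterpart, had a change of 0.57 ± 0.16, and MCCC1 (-0.62 ± 0.11) and MCCC2 (-0.52 ± 0.15), the subunits of methylcrotonyl-CoA carboxylase, fell. PC, PCCA, PCCB, HLCS and SLC5A6 did not pass, with changes between -0.21 and 0.13. ACACB and MCCC2 lost their calls without the block.

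Genes of mitochondrial and ribosomal subunits, histones and the proteasome were called lower more often than higher. Of 78 mitochondrial ribosomal protein genes 58 (74.4%) were called lower and 3 higher, with a median of -0.75, as against 27.0% and 26.4% of all genes. MRPL54 had 10.64 and 10.52 in the pull-downs against 11.88 and 12.18 in the inputs (-1.45 ± 0.13), and MRPL53 (-1.43 ± 0.14) and MRPL24 (-1.28 ± 0.13) were alike. The exceptions were MRPS16 (2.36), described above, and, chosen after their values were seen, MRPL17 (1.08) and MRPS18C (0.71). Of 71 genes of oxidative phosphorylation subunits 50 (70.4%) were lower and 5 (7.04%) higher, with a median of -0.70. COX6B1 of cytochrome c oxidase had 11.18 and 11.30 against 12.83 and 13.08 (-1.72 ± 0.12), NDUFA12 of complex I had 11.10 and 10.98 against 12.45 and 12.66 (-1.51 ± 0.13), and NDUFB11 (-1.41 ± 0.12) and COX6A1 (-1.26 ± 0.11) fell too. The 5 genes called higher were ATP5PO (1.09), and, chosen after their values were seen, NDUFS1 (1.41), NDUFA13 (0.86), COX5A (0.53) and ATP5MF (0.45).

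Cytosolic ribosomal protein genes were lower in 38 of 70 cases (54.3%) and higher in 4 (5.71%, and 2 genes when either pull-down was left out), against 27.0% and 26.4% of all genes, with a median of -0.47. The 4 were RPL37 (0.58), RPLP2 (0.47), RPS24 (0.42) and RPL22 (0.36), chosen after their values were seen. Replication-dependent histone genes, whose mRNAs mostly lack a poly(A) tail, were lower in 11 of 17 cases (64.7%) and higher in 0 (10 and 0 without the block, and 7 lower without input 1). H2AC25 had 8.12 and 8.27 in the pull-downs against 9.36 and 9.65 in the inputs (-1.31 ± 0.12), and H2AC18 (-1.02 ± 0.12), H4C12 (-1.08 ± 0.12) and H2BC12 (-1.03 ± 0.13) had the next smallest p of the list. Proteasome subunit genes were lower in 19 of 30 cases (63.3%) and higher in 3. Without the block 8 were lower and 1 higher, against 1531 and 1763 of all 9535 genes. Those of smallest p were PSMD8 (-1.04 ± 0.11), PSMB10 (-0.97 ± 0.11), PSMB7 (-0.88 ± 0.12) and PSMB2 (-0.74 ± 0.11). The 3 that rose, chosen after their values were seen, were PSMC6 (0.94), PSMD1 (0.84) and PSMA1 (0.67). Genes of mitochondrial import and complex I assembly were lower in 17 of 29 cases (58.6%) and higher in 5 (11 and 2 without the block, and 1 higher without input 1 or pull-down 1 and 3 without pull-down 2). TIMM17B (-1.27 ± 0.15) and NDUFAF4 (-1.26 ± 0.15) were among those that fell, and the 5 that rose, chosen after their values were seen, were TOMM20 (0.69), TOMM34 (0.60), TIMM21 (0.42), TOMM70 (0.42) and TIMM17A (0.29).

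Ubiquitin ligases of the HERC, UBR and HECT families stood at the other end. Of 22 genes 13 (59.1%) were higher, against 26.4% of all genes, and 1, HECTD3 (-0.61), chosen after its value was seen, was lower (8 and 1 without the block, and 0 lower without input 1), with a median of 0.67 and a median span of 150.9 kb. UBR4, another giant ligase, had 11.53 and 13.01 in the pull-downs against 9.91 and 10.14 in the inputs (2.25 ± 0.36, limma, adjusted p = 7.5e-04), again with pull-down 2 the higher. NEDD4 (0.91 ± 0.12) and NEDD4L (0.91 ± 0.13), ligases of membrane proteins, changed by nearly the same amount, and HECTD2 (0.84 ± 0.12) lost its call without the block (adjusted p = 0.086). Kinesins, the motors of microtubule transport, were higher in 11 of 24 cases (45.8%) and lower in 4 (16.7%), against 26.4% and 27.0% of all genes. Without the block 6 were higher and 0 lower, against 1763 and 1531 of all 9535 genes. Without any 1 of the 4 miR-27a arrays both counts were smaller, as were those over all genes. KIF2A, which depolymerises microtubules, had 11.31 and 11.12 against 9.03 and 9.15 (2.12 ± 0.13), and the mitotic motor gene KIF11 had 11.65 and 11.84 against 10.52 and 10.69 (1.14 ± 0.12). The 4 kinesin genes that fell, chosen after their values were seen, were KIF22 (-0.77), KIF7 (-0.51), KIF20A (-0.43) and KIF2C (-0.32). Ubiquitin-specific proteases were higher in 12 of 34 cases (35.3%), led by USP49 (1.76 ± 0.18), and lower in 5 (14.7%). Without the block 10 were higher and 2 lower, without input 1 the lower were 2, and without input 2 or pull-down 1 they were 3. The 5, chosen likewise, were USP39 (-0.65), USP30 (-0.46), USP21 (-0.41), USP3 (-0.36) and USP18 (-0.32).

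TGF-beta and SMAD signalling had 12 of 21 genes (57.1%) higher and 3 (14.3%) lower, against 26.4% and 27.0% of all genes, with a median of 0.46 and a median span of 54.8 kb, against 28.4 kb over all genes. TGFBR3, the betaglycan co-receptor, had 11.27 and 11.16 in the pull-downs against 9.69 and 9.36 in the inputs (1.69 ± 0.12). ACVR1, a BMP type I receptor, had 10.46 and 9.75 against 8.83 and 8.56 (1.41 ± 0.13). Both receptors were higher in each pair, and SMAD9, which carries BMP signals, rose by 1.05 ± 0.13. The 3 that fell were ID1 (-0.96 ± 0.11), an inhibitor of helix-loop-helix factors induced by BMP signals, and, chosen after their values were seen, TGIF1 (-0.75) and ID2 (-0.44).

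In EGFR, RAS and MAPK signalling 6 of 24 genes (25%) were higher and 7 (29.2%) lower, near the 26.4% and 27.0% of all genes (3 and 3 without the block, and 4 lower without input 2 or pull-down 1). PIK3R1, the regulatory subunit of PI3 kinase, had 10.77 and 10.46 in the pull-downs against 8.81 and 8.33 in the inputs (2.05 ± 0.15), and SPRED1, an inhibitor of RAS signalling, rose by 1.07 ± 0.14. MAPK3, the kinase ERK1, had 10.59 and 10.55 against 11.82 and 11.45 (-1.07 ± 0.14). In Wnt signalling 7 of 26 genes (26.9%) were higher and 4 (15.4%) lower (5 and 1 without the block, 1 lower without input 1 and 2 lower when either pull-down was left out), with the receptor gene FZD3 at 11.32 and 10.65 against 9.36 and 9.02 (1.80 ± 0.12), the kinase gene GSK3B at 0.85 ± 0.14 and the kinase gene CSNK1D at -0.70 ± 0.13. The other 3 that fell were AXIN1 (-0.45), FZD2 (-0.42) and DVL2 (-0.32), chosen after their values were seen. The medians of these pathways were -0.15 for EGFR, RAS and MAPK and 0.04 for Wnt, and the Wnt median was -0.04 without input 2.

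Among lipid and adipocyte genes 9 of 30 (30.0%) were higher and 5 (16.7%) lower, against 26.4% and 27.0% of all genes, ACLY, which makes cytosolic acetyl-CoA (1.04 ± 0.13), and INSIG1, which retains the sterol sensor (0.94 ± 0.13, with -0.25 and no call by a dimmer probe), standing beside ACACA. The 5 were NR1H3, the liver X receptor alpha (-0.94 ± 0.12), PPARG and, chosen after their values were seen, PNPLA2 (-0.72), MVK (-0.58) and DGAT1 (-0.43), and without the block 6 genes were higher and 2 lower. Without input 1 1 gene was called lower, and without pull-down 1 there were 3. Of 17 interferon and double-stranded RNA sensing genes 2 (11.8%) were higher and 7 (41.2%) lower (1 and 5 without the block, and 1 higher when input 1, input 2 or pull-down 2 was left out). EIF2AK2, the double-stranded RNA kinase PKR, had 12.91 and 13.41 in the pull-downs against 11.30 and 11.05 in the inputs (1.99 ± 0.21), and IFITM2 (-1.22 ± 0.12), IFITM3 (-0.90 ± 0.15) and IFI6 (-0.88 ± 0.11) fell. PKR therefore moved apart from the small interferon-induced genes. The second gene called higher was ADAR (0.38), an RNA-editing enzyme chosen after its value was seen.

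The remaining groups held rises and falls, and their shares are to be set against 26.4% higher and 27.0% lower over all genes. Their counts without the block are to be set against 1763 higher and 1531 lower of all 9535 genes. DNA damage and repair genes were higher in 17 of 47 cases (36.2%) and lower in 10, or 21.3% (15 and 3 without the block), with XRCC2 (1.44 ± 0.15) and WRN (1.24 ± 0.12) up and ERCC1 down (-1.20 ± 0.12). Chromatin genes were higher in 15 of 67 cases (22.4%) and lower in 11, or 16.4% (10 and 4 without the block), the acetyltransferase genes KAT6A (1.56 ± 0.13) and EP300 (1.11 ± 0.11) rising and KAT8 (-1.07 ± 0.13) falling. Numbered zinc finger genes were higher in 81 of 256 cases (31.6%) and lower in 41, or 16.0% (62 and 15 without the block), led by ZNF562, which had 11.75 and 11.67 in the pull-downs against 9.76 and 9.38 in the inputs (2.14 ± 0.12). Solute carriers were higher in 45 of 138 cases (32.6%) and lower in 27, or 19.6% (27 and 15 without the block), and genes named TMEM plus a number were higher in 29 of 126 cases (23%) and lower in 40, or 31.7% (18 and 20). Genes named RAB plus a number were higher in 19 of 51 cases (37.3%) and lower in 12, or 23.5% (16 and 6 without the block), with RAB2B at 13.35 and 13.28 against 11.47 and 11.28 (1.94 ± 0.11). DDX and DHX helicase genes were higher in 9 of 42 cases (21.4%) and lower in 13, or 31.0% (8 and 4 without the block), with DDX3X (0.86 ± 0.12) up and DDX41 (-1.02 ± 0.12) down. Genes named EIF plus a number were higher in 11 of 47 cases (23.4%) and lower in 16, or 34.0% (6 and 9 without the block), where EIF3K (-1.29 ± 0.11) and EIF2B1 (-1.38 ± 0.12) fell and PKR was counted by its name. Genes of vesicle trafficking were higher in 27 of 79 cases (34.2%) and lower in 18, or 22.8% (18 and 12 without the block), with STX2 (1.28 ± 0.12) and VAMP3 (1.25 ± 0.11) up and COPE (-1.52 ± 0.15) and STX8 (-1.44 ± 0.12) down. Genes named LSM or SNRP, most of them of small ribonucleoproteins, were higher in 7 of 22 cases (31.8%) and lower in 12, or 54.5%, with SNRPD3 at 11.84 and 12.17 against 9.63 and 10.18 (2.10 ± 0.14) and SNRPC at 11.37 and 11.43 against 12.65 and 12.67 (-1.26 ± 0.13). Leaving out input 1 leaves 1 array in its group. It lowered the number of genes called lower for DNA repair, chromatin, zinc fingers, solute carriers, TMEM, RAB and helicases. It also lowered the number called higher for LSM and SNRP. Leaving out any other miR-27a array lowered the number called lower for chromatin, zinc fingers, RAB and helicases. In each of these fits the numbers called higher and lower over all genes fell as well, so such losses were not particular to these groups. Some genes belong to several groups, and the counts are descriptions without a test of the group. Groups at both ends had similar medians in the miR-23b pull-down. These were -0.80 for mitochondrial ribosomal proteins, -0.69 for oxidative phosphorylation, -0.55 for histones, -0.44 for cytosolic ribosomal proteins and 0.55 for the HERC, UBR and HECT ligases.

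**Figure D4:**
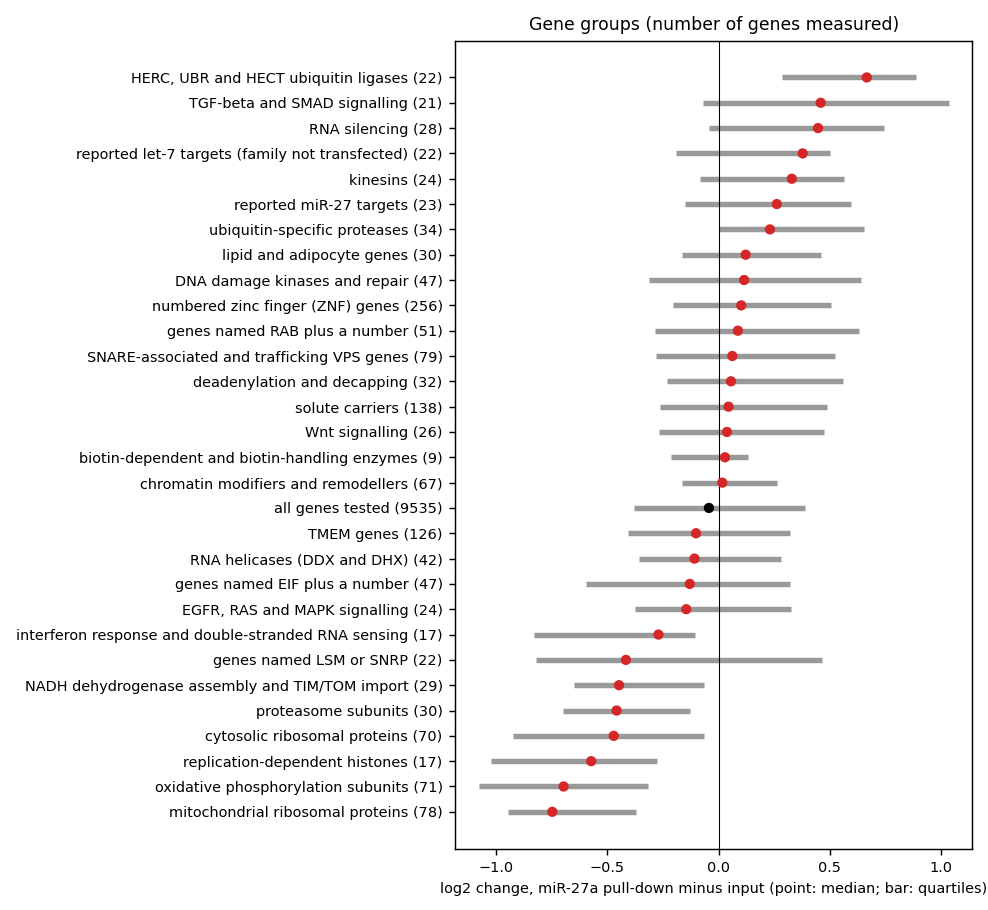
Median log2 change of miR-27a pull-down over input (points) with its quartiles (bars) for 29 gene groups and for all genes tested (black), with the number of genes measured in brackets. The medians run from 0.67 for the HERC, UBR and HECT ubiquitin ligases to -0.75 for mitochondrial ribosomal proteins, with all genes at -0.04.

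The 6 groups with the lowest medians held short genes, with median spans up to 17.7 kb, and the group with the highest median held long ones. The same order appeared across all genes. The genomic span of a gene, from its start to its end in RefSeq with introns included, was known for 9531 genes. Its rank correlation with the log2 change across genes was rho = 0.412, 0.409 in pair 1 and 0.382 in pair 2. This describes genes that share arrays, and mRNA lengths were not available here. The median span was 51.3 kb for genes called higher, 12.6 kb for genes called lower and 30.5 kb for the rest.

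By span class, 80 of 1089 genes of at most 5 kb (7.35%) were called higher and 596 (54.7%) lower, with a median of -0.42. Of 912 genes over 150 kb, 379 (41.6%) were higher and 90 (9.87%) lower, with a median of 0.23, against 26.4% and 27.0% over all genes. The classes between them were ordered, except that the class over 60 to 150 kb had the highest median, 0.24, with 735 of 1735 genes higher. Without ribosomal, respiratory and histone genes the class of at most 5 kb had 77 of 1002 genes higher and 532 lower. The pattern was present at every level of signal. Among the brightest of 5 equal classes of mean level, 29 of 297 short genes were higher and 205 lower, and 52 of 71 genes over 150 kb were higher and 5 lower. Among the dimmest class 12 of 264 short genes were higher and 74 lower, and 44 of 242 long genes higher and 19 lower. Level itself had a rank correlation of 0.016 with the change. The span order was shared with miR-23b. In its pull-down 104 genes of at most 5 kb were called higher and 448 lower, with a median of -0.27. Of the genes over 150 kb 317 were higher and 72 lower there, with a median of 0.195. Over all genes 24.5% were called higher and 20.2% lower with miR-23b.

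Single genes followed or departed from this order. MAGEF1, a gene without introns of the MAGE family, spans 1701 bases and had 10.92 and 10.56 in the pull-downs against 8.58 and 8.46 in the inputs (2.22 ± 0.12, limma, adjusted p = 1.1e-05), a rise unlike most genes of its size. MT1X, a metallothionein gene of 1727 bases, fell, with 10.72 and 10.63 against 12.27 and 12.28 (-1.60 ± 0.11). The scaffold gene of tight junctions TJP1 had 12.13 and 12.24 against 10.03 and 10.40 (1.97 ± 0.15), and SIK3, a salt-inducible kinase, had 11.83 and 11.47 against 9.70 and 9.64 (1.98 ± 0.12). Both of these long genes rose, as did TULP4 (1.43 ± 0.11), SLC44A1, a choline transporter (1.52 ± 0.12), and TGFBR3. STX8, a syntaxin whose gene is longer than any of these, departed from the order and fell.

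**Figure D5:**
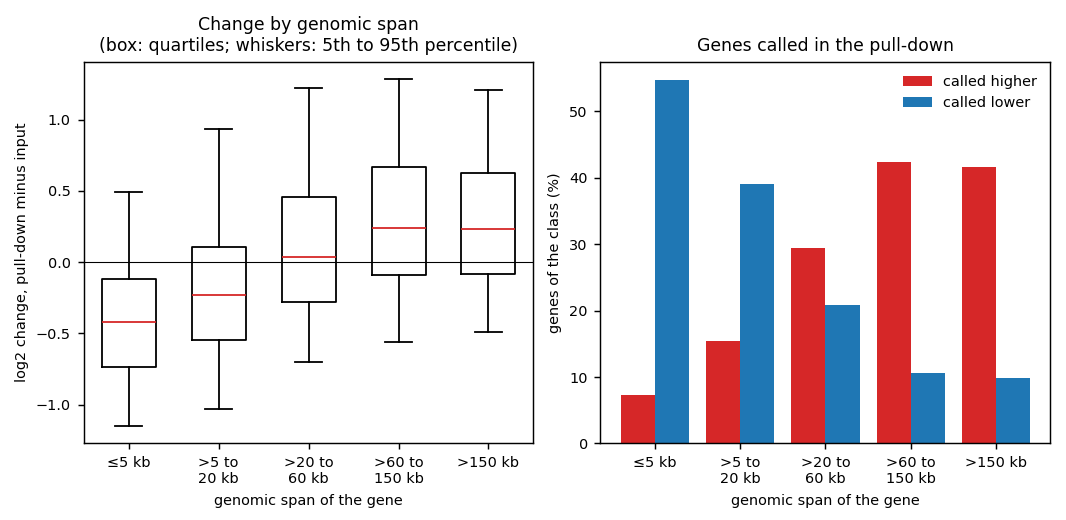
Left, log2 change of miR-27a pull-down over input by genomic span of the gene, with boxes at the quartiles and whiskers at the 5th and 95th percentiles, and right, the percent of genes in each class called higher (red) and lower (blue). The share called lower is 54.7% at up to 5 kb and 9.87% over 150 kb, while the share called higher is 7.35% and 41.6%.

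The change with miR-27a was also tested against the change with miR-23b, each over its own input. In the miR-23b pull-down 2338 genes (24.5%) were called higher and 1923 (20.2%) lower. Of the 2517 genes called higher with miR-27a, 1727 were called higher with miR-23b, 35 were called lower and 755 were not called. Of the 2573 called lower, 1493 were called lower, 94 were called higher and 986 were not called. The difference itself was called for 446 genes (4.68%), of which 141 (1.48%) were greater with miR-27a and 305 (3.20%) greater with miR-23b. Without the replicate block 27 and 25 genes differed. Of the 141 genes 115 were called higher with miR-27a and 4 lower, and of the 305 genes 231 were called lower with miR-27a and 4 higher. Chosen after their values were seen, the first 4 were ANKRD39 (-0.69 with miR-27a), NDUFA7 (-0.67), PTPMT1 (-0.52) and TMSB10 (-0.47), and the other 4 were BAG4 (0.74), NNT (0.53), ATP6V0A1 (0.35) and SGPL1 (0.34).

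MAIP1, which encodes a protein of the mitochondrial matrix, differed most among the genes also called with miR-27a. It had 12.10 and 11.86 in the miR-27a pull-downs against 9.94 and 9.96 in their inputs, and 9.47 and 9.04 in the miR-23b pull-downs against 10.33 and 10.45 in theirs. The gene thus rose with miR-27a (2.03 ± 0.15) and fell with miR-23b (-1.14), a difference of 3.17 ± 0.21 (limma, adjusted p = 3.8e-04). SNN, which encodes the small membrane protein stannin, behaved alike, with 10.34 and 9.81 against 8.11 and 7.79 for miR-27a and 7.66 and 7.87 against 8.42 and 8.37 for miR-23b (difference 2.76 ± 0.24). GTF2H5, a small subunit of TFIIH, had 13.88 and 13.69 against 12.16 and 12.07 for miR-27a and 11.40 and 11.21 against 12.20 and 12.15 for miR-23b (difference 2.55 ± 0.16). For MAIP1 and SNN both miR-27a inputs lay below both miR-23b inputs, which adds to their differences, while the inputs of GTF2H5 lay between 12.07 and 12.20.

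ATP5PO, the OSCP subunit of ATP synthase, had 14.20 and 14.00 in the miR-27a pull-downs against 12.85 and 13.17 in their inputs, and 11.95 and 11.90 in the miR-23b pull-downs against 12.88 and 13.33 (difference 2.27 ± 0.23). It went against most genes of its group with miR-27a and with them in miR-23b. ELF1 rose with both, by 3.09 and 0.87 (difference 2.22 ± 0.20). KIF2A rose with miR-27a and had a change of 0.06 with miR-23b that did not pass (difference 2.06 ± 0.18). Both miR-27a inputs of KIF2A (9.03 and 9.15) lay below both its miR-23b inputs (9.24 and 9.44), which adds to its difference. Each of these 6 differences was also called without the replicate block.

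Among genes also called with miR-27a, those with the greatest differences in the other direction fell with miR-27a and rose with miR-23b. The 70 of the 305 genes not called with miR-27a were left out of this choice. OXA1L, an insertase of the inner mitochondrial membrane, had 9.40 and 9.37 in the miR-27a pull-downs against 10.14 and 10.23 in their inputs (-0.80 ± 0.12), and 11.67 and 11.78 in the miR-23b pull-downs against 10.02 and 10.32 (difference -2.36 ± 0.17). C15orf61 had 10.62 and 10.06 against 11.44 and 11.00 with miR-27a (-0.87 ± 0.12, difference -2.12 ± 0.17), and was not called for the difference without the block (adjusted p = 0.090). CXXC5, a zinc finger gene, had 10.75 and 10.69 against 11.04 and 11.02. By this brightest probe the fall was small (-0.30 ± 0.11, limma, adjusted p = 0.042) and lost its call in 9 of 16 settings. A second probe gave -0.81 with miR-27a and was called lower. The difference of -2.04 ± 0.16 by the brightest probe held. PXMP2 of the peroxisomal membrane (-0.74 ± 0.14), FAU, which encodes a ribosomal protein with a ubiquitin-like leader (-1.26 ± 0.14), and RNASEK (-0.75 ± 0.13) completed the 6, with differences of -2.03, -1.99 and -1.96. A second probe of PXMP2 gave -0.05 with miR-27a and was not called.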

How the data were processed

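Per the labels, biotinylated duplexes were transfected into HEK293T cells and RNA was hybridised to Illumina bead arrays of 1 colour. The authors deposited 1 log2 value per probe and array for 14479 probes, made with lumi 2.2.1 by the submitters' processing notes, and for the transformation, the normalization and the filter, no settings were found (not given in the sources used here). Values were treated as log2, and if a variance-stabilizing transformation was used, changes of dim probes are understated, so that folds are apparent. A table of signals before normalization was not used, because its 8 signal columns match no label, nor were its 8 detection p columns, so that no detection filter was applied. Probes were named by the platform annotation (12008 with 1 gene, 2 with several, 2469 with none), and 12006 Entrez numbers were found in RefSeq GRCh38.p14. Of 2104 genes with several probes 47 had probes called in opposite directions with miR-27a.

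limma 3.58.1 in R 4.3.3 fitted a mean for each of 4 groups over all 8 arrays with the replicate number as a block (residual df 3, prior df 6.28), two-sided, with Benjamini-Hochberg adjustment over all probes and a threshold of 0.05. The numbers come from the labels, and their pairing was checked on the differences between arrays 2 and 1. These correlated at 0.339 to 0.795 in 6 of 6 pairs of groups. The lowest value was between the miR-27a pull-down and the miR-27a input, the pairs used here. The highest was between the miR-27a and the miR-23b inputs, so the number is shared across the miRNAs. The script was tested on simulated data. Named genes were the 15 largest rises and 15 largest falls among called genes without overlap, and up to 4 called genes of smallest p in each list. Added were the 6 largest differences from miR-23b in each direction, among genes called for the difference and for miR-27a. All measured miR-27 target, RNA silencing and biotin genes were in the named set too, and 5 called genes of smallest p in the end classes of span. Not every gene of the named set is described above, among them the silencing genes FKBP5, TSNAX and ELAVL1. Genomic span replaced the planned protein length, which no table used here gave. The members, lists and rules were chosen with earlier results of these data known. The alternatives were other blocks, scalings, probe filters and probe averages, the 4 miR-27a arrays alone, a prior trend, and each array left out. Leaving out array 1 or array 2 of a miR-23b group gave the same test of the miR-27a change. The 16 settings are therefore not all separate checks of that change.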

Additional observations from a re-analysis of the deposited data

Results flagged for a closer look

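For 37 of the named genes the change in the miR-27a pull-down differed from that in the miR-23b pull-down by the test of the difference itself (limma, adjusted p under 0.05), and the values below are the miR-27a change minus the miR-23b change on the log2 scale. Of these differences 17 kept their call under every alternative setting, and the same 17 without the replicate block.

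Those 17 were MAIP1 (3.17), SNN (2.76), GTF2H5 (2.55), ATP5PO (2.27), ELF1 (2.22), KIF2A (2.06), CYP1B1 (1.94), TJP1 (1.56), MAGEF1 (1.55) and DHX32, a helicase gene (1.16), which were greater with miR-27a, and OXA1L (-2.36), CXXC5 (-2.04), PXMP2 (-2.03), FAU (-1.99), RNASEK (-1.96), MAPK3 (-1.91) and RPL34 (-1.48), which were greater with miR-23b. MAPK3 fell by 1.07 with miR-27a and rose by 0.84 with miR-23b. RPL34 fell with both, by 1.84 and 0.36. DHX32 rose by 1.05 with miR-27a and had -0.11 with miR-23b, which did not pass.

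The other 20 lost the call in some alternative. Greater with miR-27a were SLC46A3 (1.74), MRPS16 (1.14), SLC7A2, a cationic amino acid transporter gene (1.11), RAN (0.98), ACLY (0.95), KLHL23 (0.93), WRN (0.89), FZD3 (0.79), ACVR1 (0.78), VAMP3 (0.78), SIK3 (0.75), ZNF562 (0.71), ZNF329 (0.70) and CNOT6L (0.67). Greater with miR-23b were C15orf61 (-2.12), AURKB (-1.48), STX8 (-1.41), EIF3K (-1.21), PSMB2 (-0.78) and ERCC1 (-0.77). AURKB, STX8, EIF3K and PSMB2 fell with miR-27a, and their changes with miR-23b did not pass (0.32, -0.03, -0.08 and 0.04).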

How the results depend on the processing

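Without the replicate block, which ignores the pairing of same-numbered arrays, 1763 genes were called higher and 1531 lower in the miR-27a pull-down, 3294 in either direction, and 27, 25 and 52 differed from miR-23b (greater with miR-27a, greater with miR-23b, either). With a replicate block within each miRNA 76, 154 and 230 differed. Leaving out 1 array in turn, which leaves 1 array in its group, gave 1956 to 2580 genes higher, 1731 to 2664 lower and 3720 to 5244 in either direction, and 50 to 96, 76 to 240 and 126 to 336 that differed. The count that differed was more than 1.5 times lower without each array except pull-down 1 of miR-23b (96, 240 and 336). The median of genes up to 5 kb was -0.54 without the dimmest 25% of probes and -0.46 to -0.39 with an array left out, and that of genes over 150 kb was 0.26 after quantile normalization, 0.22 after median scaling, 0.35 without those probes, 0.22 with probes averaged and 0.22 to 0.25 with an array left out. With probes averaged 3 of all genes called were called in the opposite direction, and in the other settings 0. No named gene that was called changed direction. Of 172 named genes called, 150 kept the call in all and 22 lost it in some, 5 that were not called became so in some, and 8 uncalled ones changed sign. The span classes and the list counts under alternatives were added after seeing the data. With 2 arrays a group and no detection calls, changes of genes near the lowest signals are the least certain.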

Other observations

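Some genes differed between the miR-27a pull-down arrays by more than 1 on the log2 scale, and the differences were shared with the other miRNA. On pull-down 2 of miR-27a 34 genes were higher by more than 1 than on pull-down 1, with a median genomic span of 66.2 kb against 28.4 kb over all genes, and all 34 were also higher on pull-down 2 of miR-23b. DYNC1H1, the heavy chain of cytoplasmic dynein, had 9.89 and 12.18 in the miR-27a pull-downs and 9.19 and 9.84 in the inputs. ESPL1, the separase that cuts cohesin, had 10.19 and 12.10 in the pull-downs and 9.42 and 9.50 in the inputs, and BSN, a presynaptic scaffold gene, 8.06 and 9.98 against 7.78 and 7.95. In these genes the inputs lay closer together than the pull-downs. In the opposite direction 3 genes were lower by more than 1 on pull-down 2, with a median span of 3.0 kb, among them RPS2, a ribosomal protein gene, with 14.26 and 13.23 in the pull-downs against 14.02 and 14.30 in the inputs. All 3 were also lower on pull-down 2 of miR-23b.

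AMD1, a decarboxylase of polyamine synthesis, differed between the inputs instead, with 11.12 and 10.55 in the pull-downs and 8.78 and 10.14 in the inputs. KPNA2, a nuclear import receptor, had 8.45 and 8.17 in the pull-downs and 8.39 and 9.67 in the inputs. For both genes input 2 was the higher by more than 1, and their changes in the pairs were 2.34 and 0.42 for AMD1 and 0.07 and -1.50 for KPNA2. These genes were chosen after their values were seen, and the sources of the differences between arrays were not tested.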
